A study of Homo sapiens with 9 samples.

Results

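Transcripts of 10 genes that write, erase or read N6-methyladenosine (m6A), the internal methyl mark of messenger RNA, were followed in 786-O cells after silencing of TRIM28 or PARP1. The genes are METTL3, METTL14, METTL16, WTAP, VIRMA, ALKBH5, FTO, YTHDF1, YTHDF2 and YTHDF3. They were taken by symbol from a table of 61806 genes, and all 10 were found and passed the filter on low counts, as did 13562 genes in all. The set was chosen on a measured value, because METTL16 is among the genes with the lowest fold changes in PARP1 knockdown. Comparisons of PARP1 knockdown with control are therefore given for these genes as a description, with no p-values, and nothing is read from counts of calls there.

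The 786-O line is an established human line from a clear cell renal carcinoma. Poly(A)-selected RNA was sequenced from 9 libraries: 3 of TRIM28 knockdown cells, 3 of PARP1 knockdown cells and 3 of control cells. Fields of the labels disagree on the reagent, which is siRNA or shRNA, and on the controls, which are called negative control but also parental or wild type. The labels give no dose, time or clone, and nothing in them says that replicates came from separate cultures, so p-values measure the spread between these libraries, which may be technical. TRIM28 is a chromatin corepressor. PARP1 senses DNA breaks and makes poly(ADP-ribose).

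m6A is laid down on messenger RNA during transcription by a nuclear complex in which METTL3 is the catalytic subunit, METTL14 its RNA-binding partner, and WTAP and VIRMA hold the complex together and guide it. METTL16 is a separate methyltransferase that acts alone on structured RNAs: it methylates hairpins in the 3′ untranslated region of the MAT2A transcript, which encodes the enzyme that makes the methyl donor S-adenosylmethionine. The demethylases ALKBH5 and FTO remove the mark, and the cytoplasmic YTH-domain proteins YTHDF1, YTHDF2 and YTHDF3 bind it, YTHDF2 being best known for recruiting RNA decay.

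Matches to ACAGAGA, a box found at MAT2A sites that METTL16 methylates, are in capitals here in DNA letters. Only these exact letters were searched for, so sites with other letters are not listed, and methylation was not measured. The matches are shown because MAT2A is the transcript through which METTL16 is best known, and its level is measured below. The canonical MAT2A transcript, 2819 bases long in GENCODE on GRCh38, holds 5 such boxes, all in its 3′ untranslated region on the plus strand of chromosome 2.
chr2:85543804-85543828: gcgtaggctACAGAGAagccttcaa
chr2:85544591-85544615: tgatgtcatACAGAGAagtcacagg
chr2:85544776-85544800: ggtgtagctACAGAGAaaccagctt
chr2:85544891-85544915: ggcgtaagtACAGAGAagccatcac
chr2:85545114-85545138: tggtgtggtACAGAGAagccagctt

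Libraries held 11963110 to 20224374 counted reads and 17977 to 20116 detected genes. Values are given as CPM, the reads of a gene scaled to a common library size with TMM factors, or as FPKM. The deposited FPKM divides reads by gene length and by the library total, without TMM factors, so changes between groups can differ between the 2 measures. TRIM28 had 44.0, 54.7 and 58.0 CPM in TRIM28 knockdown and 316, 341 and 381 CPM in control. PARP1 had 6.82, 4.48 and 5.24 CPM in PARP1 knockdown and 178, 200 and 153 CPM in control. Both targets were thus low in the libraries labelled for them. TRIM28 knockdown libraries had 94.4, 93.3 and 93.6 CPM of PARP1, or 52.9% of control (adjusted p = 3.61e-05, edgeR quasi-likelihood test with Benjamini-Hochberg adjustment). PARP1 knockdown libraries had 440, 421 and 428 CPM of TRIM28, or 124% of control (log2 fold change 0.31 ± 0.13, SE). In FPKM, TRIM28 averaged 89.1 in PARP1 knockdown and 89.7 in control. The renal epithelial markers PAX8, CDH6, HAVCR1, KRT8 and KRT18 were read in every library, and PAX2 was low, at 2.97 to 6.72 CPM. In TRIM28 knockdown and PARP1 knockdown against control, log2 fold changes were -1.08 and -1.81 for CDH6, -1.08 and -1.63 for HAVCR1, 0.48 and 0.75 for KRT8, 0.56 and 0.93 for KRT18 and -0.05 and -0.12 for PAX8. What part this has in the results was not tested. Leukocyte markers PTPRC and CD3E had 0 reads in all libraries, and the endothelial marker PECAM1 had at most 1.24 CPM.

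Coverage of long genes differed between the groups. The slope on log2 gene length of log2 CPM, taken relative to each gene's mean over the 9 libraries, averaged -0.0119 ± 0.0118 in TRIM28 knockdown, -0.138 ± 0.0368 in PARP1 knockdown and 0.150 ± 0.0688 in control (SD, n = 3 each). Control replicate 3, with a slope of 0.0725, lay closer to the knockdown libraries than did the other controls, at 0.203 and 0.175. Reads from ribosomal protein genes, which are short, made up 13.1% ± 0.831, 15.3% ± 1.86 and 10.5% ± 0.713 of counts in TRIM28 knockdown, PARP1 knockdown and control (SD, n = 3 each). The tested genes were put in 10 classes by summed exon length. Class medians and values from fits with the length trend removed are given for several genes below.

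METTL16 had the lowest fold change of the 10 m6A genes in both knockdowns (ENSG00000127804, chromosome 17, 2405562 to 2511891, minus strand, GRCh38). Its transcript stood at 15.9, 15.5 and 15.1 CPM in TRIM28 knockdown, at 6.23, 6.85 and 5.64 CPM in PARP1 knockdown and at 42.5, 44.7 and 30.6 CPM in control. The 3 groups did not overlap, and the PARP1 knockdown libraries were the lowest. In such bulk libraries, fewer cells that express a gene and less RNA per cell cannot be told apart. In TRIM28 knockdown METTL16 fell to 39.5% of control (log2 fold change -1.34 ± 0.16, SE; adjusted p = 2.23e-06, edgeR quasi-likelihood test with Benjamini-Hochberg adjustment over all 13562 genes). That call held in all 20 alternative analyses, with log2 fold changes between -1.50 and -0.96. The test uses the control libraries of the contrast that METTL16 was chosen on, so its p-value is not independent of the choice. The alternatives do not change that. In PARP1 knockdown, the contrast it was chosen on, METTL16 was at 15.9% of control, or 6.30-fold lower (log2 fold change -2.65 ± 0.18, SE). PARP1 knockdown libraries were also below TRIM28 knockdown libraries, by a log2 difference of -1.31 ± 0.18 (SE), again given as a description.

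**Figure D1:**
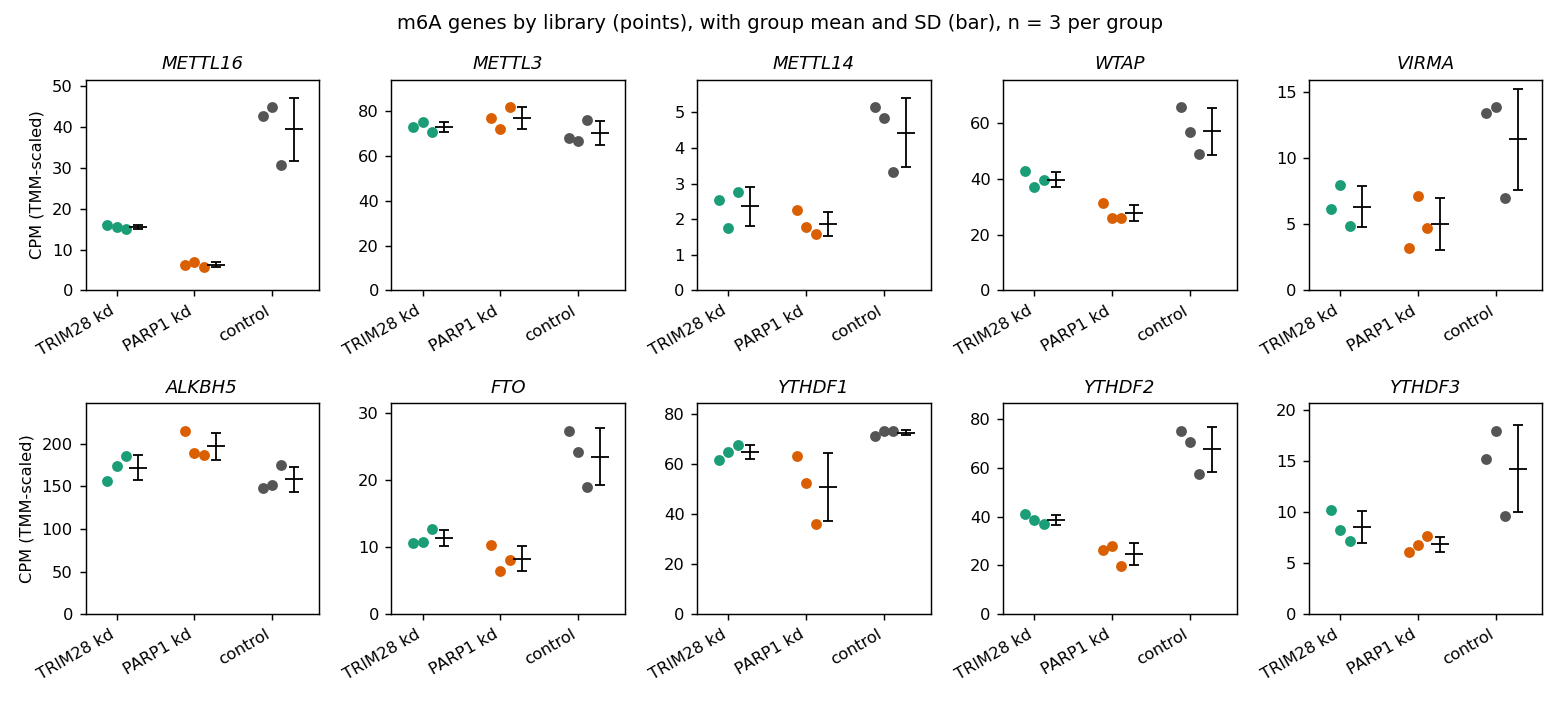
CPM of the 10 m6A genes in each library (points), with the group mean and SD (bar, n = 3), for TRIM28 knockdown, PARP1 knockdown and control; each panel has its own vertical axis starting at 0. METTL16 lies at 15.1 to 15.9 CPM in TRIM28 knockdown, 5.64 to 6.85 CPM in PARP1 knockdown and 30.6 to 44.7 CPM in control, while METTL3 lies between 66.8 and 81.8 CPM in all 9 libraries.

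Over all tested genes, METTL16 was at position 21 from the lowest log2 fold change in PARP1 knockdown against control. The order was also taken over a narrower list. That list held genes with a symbol, a mean FPKM of at least 1, edgeR adjusted p below 0.05 and no group overlap. In it METTL16 had the 4th lowest log2 fold change, after PARP1 at -4.99, RNASEH1 at -4.22 and TMX1 at -3.62. LPIN2 at -2.61, COPB2 at -2.61 and DIAPH1 at -2.56 came next. The summed exons of METTL16 span 8934 bases, and the median log2 fold change of the genes in its length class was -0.31 in TRIM28 knockdown and -0.56 in PARP1 knockdown. With the length trend of each library removed, METTL16 had a log2 fold change of -1.03 in TRIM28 knockdown (adjusted p = 3.19e-05, edgeR with Benjamini-Hochberg adjustment) and -2.14 in PARP1 knockdown.

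The METTL3-METTL14 core and its scaffold had unlike values, though their fold changes were not tested against each other. METTL3, the catalytic subunit, had 72.8, 75.2 and 70.6 CPM in TRIM28 knockdown, 76.8, 72.1 and 81.8 CPM in PARP1 knockdown and 67.9, 66.8 and 76.3 CPM in control. These ranges overlapped in every pair of groups, and the log2 fold change in TRIM28 knockdown was 0.05 ± 0.12 (SE; adjusted p = 0.795, edgeR quasi-likelihood test with Benjamini-Hochberg adjustment). In PARP1 knockdown it was 0.13 ± 0.13 (SE). The sign of these small METTL3 values depends on scaling: with library totals in place of TMM they were -0.11 and -0.20. With the length and GC trends removed they were 0.38 (adjusted p = 0.038, edgeR with Benjamini-Hochberg adjustment) and 0.77.

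METTL14, the RNA-binding partner of METTL3, was the least abundant of the 10 genes, with 16 to 107 reads per library. It had 2.55, 1.75 and 2.77 CPM in TRIM28 knockdown, 2.25, 1.78 and 1.58 CPM in PARP1 knockdown and 5.15, 4.84 and 3.32 CPM in control. Both knockdowns lay below all controls, and the 2 knockdowns overlapped. METTL14 fell to 53.2% of control in TRIM28 knockdown (log2 fold change -0.89 ± 0.28, SE; adjusted p = 0.0197, edgeR with Benjamini-Hochberg adjustment) and was at 42.2% in PARP1 knockdown (-1.22 ± 0.30, SE). The ratio of METTL3 to METTL14 in FPKM was 37.7 ± 10.9 in TRIM28 knockdown, 48.9 ± 9.71 in PARP1 knockdown and 19.4 ± 6.45 in control (SD, n = 3 each). The ratio of METTL3 to METTL16 was 7.14 ± 0.210 in TRIM28 knockdown, 19.1 ± 3.07 in PARP1 knockdown and 2.84 ± 0.836 in control (SD, n = 3 each), and its groups did not overlap.

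WTAP, which anchors the METTL3 complex in nuclear speckles, had 42.8, 37.1 and 39.6 CPM in TRIM28 knockdown, 31.3, 26.0 and 26.1 CPM in PARP1 knockdown and 65.8, 56.8 and 48.9 CPM in control. The 3 groups did not overlap. WTAP fell to 69.7% of control in TRIM28 knockdown (log2 fold change -0.52 ± 0.14, SE; adjusted p = 0.00866, edgeR with Benjamini-Hochberg adjustment) and was at 48.6% in PARP1 knockdown (-1.04 ± 0.15, SE). VIRMA, the large scaffold that directs methylation toward the 3′ end, had 6.16, 7.97 and 4.88 CPM in TRIM28 knockdown, 3.18, 7.10 and 4.75 CPM in PARP1 knockdown and 13.4, 13.8 and 7.00 CPM in control. Control replicate 3 lay inside the range of both knockdowns. VIRMA had a log2 fold change of -0.86 ± 0.27 in TRIM28 knockdown (SE; adjusted p = 0.0182, edgeR with Benjamini-Hochberg adjustment) and of -1.20 ± 0.28 in PARP1 knockdown (SE).

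The demethylases had unlike values. FTO, whose gene spans chromosome 16 from 53701692 to 54158512, had 10.6, 10.8 and 12.8 CPM in TRIM28 knockdown, 10.3, 6.51 and 8.11 CPM in PARP1 knockdown and 27.4, 24.2 and 18.9 CPM in control. All knockdown libraries were below all controls. FTO fell to 48.6% of control in TRIM28 knockdown (log2 fold change -1.04 ± 0.18, SE; adjusted p = 0.000223, edgeR quasi-likelihood test with Benjamini-Hochberg adjustment), a call that held in all 20 alternatives, and was at 35.3% in PARP1 knockdown (-1.49 ± 0.19, SE). Its summed exons span 21379 bases, and the longest length class, to which FTO belongs, had medians of -0.39 and -0.67. With the length trend removed FTO had -0.61 in TRIM28 knockdown and -0.81 in PARP1 knockdown, and with the GC trend removed too -0.50 and -0.52. ALKBH5, the other demethylase, had 156, 174 and 185 CPM in TRIM28 knockdown, 215, 189 and 187 CPM in PARP1 knockdown and 148, 151 and 175 CPM in control. TRIM28 knockdown and control overlapped (log2 fold change 0.12 ± 0.13, SE; adjusted p = 0.516, edgeR quasi-likelihood test with Benjamini-Hochberg adjustment), whereas all PARP1 knockdown libraries were above all controls (0.32 ± 0.13, SE). With library totals in place of TMM these ALKBH5 values were -0.04 and -0.003, so their sign rests on the scaling. The ratio of ALKBH5 to FTO in FPKM was 89.4 ± 4.53 in TRIM28 knockdown, 145 ± 25.5 in PARP1 knockdown and 41.4 ± 12.1 in control (SD, n = 3 each).

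Among the cytoplasmic readers, YTHDF2 had the lowest fold change. YTHDF2, which recruits the CCR4-NOT deadenylase, had 40.9, 38.4 and 36.9 CPM in TRIM28 knockdown, 26.2, 28 and 19.8 CPM in PARP1 knockdown and 75.1, 70.3 and 57.4 CPM in control. The 3 groups did not overlap. YTHDF2 fell to 57.3% of control in TRIM28 knockdown (log2 fold change -0.80 ± 0.15, SE; adjusted p = 0.000296, edgeR quasi-likelihood test with Benjamini-Hochberg adjustment), a call that held in all 20 alternatives, and was at 36.5% in PARP1 knockdown (-1.45 ± 0.15, SE). YTHDF2 and ALKBH5 belong to the same length class, whose median log2 fold change was 0.08 in TRIM28 knockdown and 0.09 in PARP1 knockdown.

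YTHDF1, a reader linked to translation, had 61.9, 65.0 and 67.8 CPM in TRIM28 knockdown, 63.5, 52.6 and 36.3 CPM in PARP1 knockdown and 71.4, 73.4 and 73.2 CPM in control. All TRIM28 and PARP1 knockdown libraries were below all controls, and the PARP1 knockdown libraries spread widely, with replicate 3 the lowest. YTHDF1 did not pass the test in TRIM28 knockdown (log2 fold change -0.16 ± 0.15, SE; adjusted p = 0.441, edgeR with Benjamini-Hochberg adjustment), and in PARP1 knockdown it had -0.51 ± 0.15 (SE). YTHDF3, which shares targets with the other readers, had 10.2, 8.21 and 7.17 CPM in TRIM28 knockdown, 6.09, 6.77 and 7.62 CPM in PARP1 knockdown and 15.2, 17.9 and 9.63 CPM in control. Control replicate 3 overlapped with TRIM28 knockdown only. The log2 fold change of YTHDF3 was -0.74 ± 0.21 in TRIM28 knockdown (SE; adjusted p = 0.0124, edgeR with Benjamini-Hochberg adjustment) and -1.07 ± 0.22 in PARP1 knockdown (SE). The YTHDF1 to YTHDF2 ratio in FPKM was 1.96 ± 0.188 in TRIM28 knockdown, 2.38 ± 0.381 in PARP1 knockdown and 1.27 ± 0.195 in control (SD, n = 3 each).

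In TRIM28 knockdown 7 of the 10 genes passed the test and all 7 fell, against 27.8% of all tested genes called and 17.5% called lower. No member passed as higher, where 10.3% of all genes did. The median log2 fold change of the 10 was -0.77 and that of all tested genes -0.02. For 6 of the 10 every TRIM28 knockdown library was below every control, as for 25.3% of all genes. PARP1 knockdown against control is the contrast the set was chosen on, and nothing is read from its counts: 9 genes were past the threshold, 8 lower and 1 higher, beside 59.3% of all genes called, 32.2% lower and 27.1% higher. There 7 genes were lower without overlap, beside 33.0% of all genes, and the median was -1.13 against -0.07 for all genes. The knockdowns share their controls, so these counts are not independent of each other. METTL16, among the 7 called in TRIM28 knockdown, was chosen on a contrast with the same controls.

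**Figure D2:**
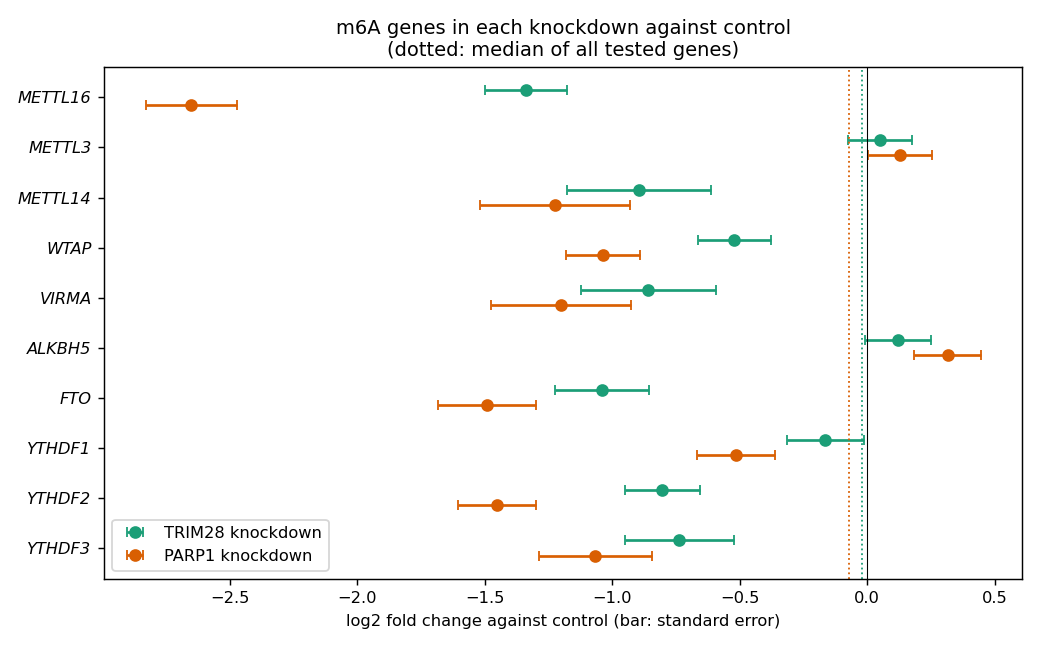
Log2 fold change of each m6A gene against control for each knockdown, TRIM28 above PARP1 (points; bars, SE from the edgeR fit of 9 libraries; dotted lines, median of all tested genes). METTL16 is lowest in both, at -1.34 and -2.65, and METTL3 and ALKBH5 lie between 0.05 and 0.32, values whose sign turns with library totals in place of TMM.

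4 of the 7 calls in TRIM28 knockdown depended on single libraries or on the length trend. Without control replicate 1, METTL14 (adjusted p = 0.124), WTAP (0.113), VIRMA (0.114) and YTHDF3 (0.0707) no longer passed by edgeR with Benjamini-Hochberg adjustment. Without control replicate 2, METTL14 (0.0965), VIRMA (0.108) and YTHDF3 (0.138) were lost in the same edgeR test. Leaving out TRIM28 knockdown replicate 2 ended the calls of METTL14 (0.124), WTAP (0.0794) and YTHDF3 (0.059), leaving out replicate 1 that of VIRMA (0.066), and leaving out replicate 3 those of VIRMA (0.105) and YTHDF3 (0.0828), again as edgeR adjusted p. With the length trend removed METTL14 had -0.67, WTAP -0.33 and VIRMA -0.51, none past the threshold, while METTL16, FTO, YTHDF2 and YTHDF3 passed. With the GC trend removed too, YTHDF3 had -0.38 and did not pass. The length class of METTL14, WTAP and YTHDF3 had medians of -0.17 in TRIM28 knockdown and -0.38 in PARP1 knockdown, and that of VIRMA had -0.31 and -0.56. In PARP1 knockdown, removing the length trend gave METTL14 -0.86, WTAP -0.71, VIRMA -0.63 and YTHDF3 -0.75.

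PARP1 knockdown was then set directly against TRIM28 knockdown. By edgeR with Benjamini-Hochberg adjustment, YTHDF2 was lower in PARP1 knockdown by a log2 difference of -0.65 ± 0.15 (SE, adjusted p = 0.00377) and WTAP by -0.52 ± 0.15 (SE, adjusted p = 0.0119). Of the 9 genes other than METTL16, these 2 passed, both lower, against 25.1% of all genes called and 13.2% lower. FTO at -0.45 ± 0.20, YTHDF1 at -0.35 ± 0.15, VIRMA at -0.34 ± 0.29, METTL14 at -0.33 ± 0.31 and YTHDF3 at -0.33 ± 0.23 (SE) did not pass, nor did METTL3 at 0.08 ± 0.13 and ALKBH5 at 0.20 ± 0.13 (SE). The WTAP call was lost without TRIM28 knockdown replicate 1 (-0.46), without PARP1 knockdown replicate 2 (-0.47) and with the length and GC trends removed (-0.18). Without PARP1 knockdown replicate 1, FTO (-0.65) and YTHDF1 (-0.54) passed as well, so 4 of these 9 genes were called. Calls over all genes rose too in that setting, to 4714 of 13966 from 3407 of 13562.

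Per length, ALKBH5 was the most abundant of the 10 transcripts in every group, at 47.8 ± 4.16 FPKM in TRIM28 knockdown, 48.9 ± 7.64 FPKM in PARP1 knockdown and 49.0 ± 2.83 FPKM in control (SD, n = 3 each). In control YTHDF1 followed at 25.4 FPKM, then YTHDF2 at 20.3, METTL3 at 13.4, WTAP at 10.01, METTL16 at 4.94, YTHDF3 at 2.6, FTO at 1.24, VIRMA at 1.20 and METTL14 at 0.73 FPKM. FTO overlapped with VIRMA and VIRMA with METTL14, and all other neighbours in that order were separate. In TRIM28 knockdown METTL3 at 12.4 FPKM stood above YTHDF2 at 10.4 FPKM, and VIRMA at 0.587 FPKM overlapped with FTO at 0.537 FPKM. In PARP1 knockdown METTL16, at 0.62 ± 0.0781 FPKM, stood below YTHDF3 at 0.983 ± 0.0493 FPKM (SD, n = 3 each). There its range overlapped with that of VIRMA at 0.41 FPKM, and YTHDF1 at 14.3 FPKM overlapped with METTL3 at 11.7 FPKM.

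**Figure D3:**
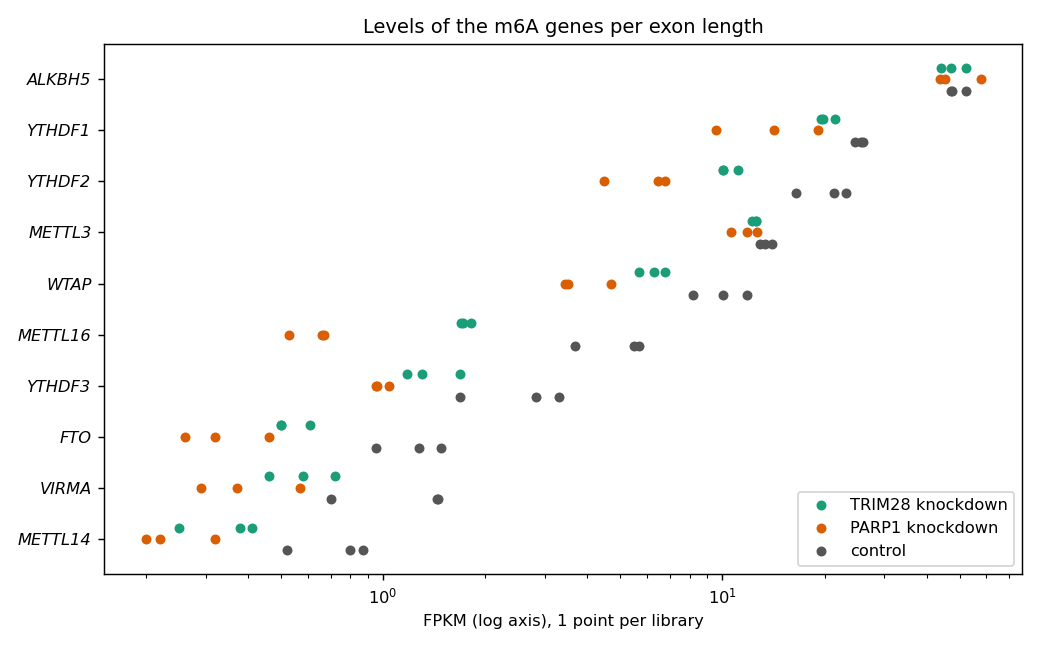
FPKM of the 10 m6A genes on a log axis in TRIM28 knockdown, PARP1 knockdown and control (points, libraries). ALKBH5 is highest in each group at 47.8 to 49.0 FPKM on average, and METTL16 averages 1.74 FPKM in TRIM28 knockdown, 0.62 FPKM in PARP1 knockdown and 4.94 FPKM in control.

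The 22 other genes of the m6A pathway, taken by textbook function, were mixed. Of these 21 passed the filter on low counts, the exception being IGF2BP1. In TRIM28 knockdown 8 of the 21 passed the test, 6 lower and 2 higher, beside 27.8% of all genes, 17.5% lower and 10.3% higher. The median log2 fold change of the 21 was -0.33, against -0.02 for all genes. In PARP1 knockdown 15 passed, 11 lower and 4 higher, beside 59.3% of all genes, 32.2% lower and 27.1% higher. The median was -0.53, against -0.07 for all genes. Between PARP1 and TRIM28 knockdown 8 passed, 5 lower and 3 higher, beside 25.1% of all genes, 13.2% lower and 11.9% higher. The median difference was -0.31, against -0.03 for all genes.

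MAT2A, the METTL16 target whose ACAGAGA boxes are printed above, had 88.3, 78.03 and 77.5 CPM in TRIM28 knockdown, 80.3, 66.1 and 58.7 CPM in PARP1 knockdown and 108, 101 and 109 CPM in control. All knockdown libraries were below all controls. MAT2A fell to 76.7% of control in TRIM28 knockdown (log2 fold change -0.38 ± 0.13, SE; adjusted p = 0.0338, edgeR quasi-likelihood test with Benjamini-Hochberg adjustment). That call ended in 9 of 20 alternatives, among them each fit without a control library, with edgeR adjusted p of 0.148, 0.0961 and 0.0779, and those without TRIM28 knockdown replicate 2 (0.180) or 3 (0.154) or PARP1 knockdown replicate 2 (0.0511). In PARP1 knockdown MAT2A was at 64.5% of control (-0.63 ± 0.13, SE), and between the knockdowns the difference was -0.25 ± 0.14 (SE; adjusted p = 0.188, edgeR with Benjamini-Hochberg adjustment). Over the 20 alternatives MAT2A ranged from -0.54 to -0.19 in TRIM28 knockdown and from -0.97 to -0.19 in PARP1 knockdown. Its difference between the knockdowns ranged from -0.43 to 0.002.

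HNRNPA2B1, a nuclear RNA-binding protein described as an m6A reader, had 216, 186 and 198 CPM in TRIM28 knockdown, 123, 130 and 102 CPM in PARP1 knockdown and 494, 535 and 362 CPM in control. The 3 groups did not overlap. HNRNPA2B1 fell to 43.1% of control in TRIM28 knockdown (log2 fold change -1.21 ± 0.15, SE; adjusted p = 2.23e-06, edgeR quasi-likelihood test with Benjamini-Hochberg adjustment), was at 25.5% in PARP1 knockdown (-1.97), and was lower in PARP1 than in TRIM28 knockdown by -0.76 ± 0.15 (SE; adjusted p = 0.00106 in the same edgeR test). HNRNPA2B1 is in the longest length class, with medians of -0.39 in TRIM28 knockdown and -0.67 in PARP1 knockdown. With the length trend removed it had -0.84 and -1.36, and with the GC trend removed too -0.66 and -1.03. IGF2BP2, a reader that stabilises transcripts, fell by 0.95 on the log2 scale in TRIM28 knockdown (adjusted p = 0.000338, edgeR), and YTHDC1, the nuclear YTH reader, fell by 0.92 (adjusted p = 0.00329, edgeR). The YTHDC1 call ended in 2 of the 20 alternatives. IGF2BP2 had a log2 fold change of -1.56 in PARP1 knockdown.

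TRMT112 and AHCY were the pathway genes called higher in TRIM28 knockdown. TRMT112, a small activator of several methyltransferases that include METTL5, had 292, 303 and 256 CPM in TRIM28 knockdown, 315, 439 and 497 CPM in PARP1 knockdown and 178, 187 and 216 CPM in control. Every knockdown library was above every control. TRMT112 rose in TRIM28 knockdown by 0.55 ± 0.15 on the log2 scale (SE; adjusted p = 0.00794, edgeR with Benjamini-Hochberg adjustment). That call ended in 4 of 20 alternatives, among them with the length trend removed (0.27) and without control replicate 1 (adjusted p = 0.0524, edgeR). Its summed exons span 1100 bases, and the genes of that length class had a median of 0.33. AHCY, which clears S-adenosylhomocysteine, rose by 0.42 ± 0.13 (SE; adjusted p = 0.0194, edgeR), a call that ended in 9 of 20 alternatives, without control replicate 1 (0.0995), control replicate 2 (0.0908), TRIM28 knockdown replicate 2 (0.0622) or replicate 3 (0.0801, edgeR adjusted p) among them. Copies of AHCY elsewhere in the genome held 12327 reads beside its own 45880, so its level is uncertain.

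In PARP1 knockdown TRMT112 stood at 1.11, AHCY at 0.82 and PCIF1, which methylates the cap-adjacent adenosine, at 0.71 on the log2 scale against control. MAT2B, the regulatory partner of MAT2A, stood at -1.22. Over the 20 alternatives TRMT112 ranged from 0.42 to 1.27, AHCY from 0.49 to 0.96, PCIF1 from 0.07 to 0.84 and MAT2B from -1.54 to -0.50. The length class of TRMT112 had a median of 0.65 in PARP1 knockdown. Set against TRIM28 knockdown, MAT2B at -0.89 ± 0.17 (SE; adjusted p = 0.000827) and CBLL1, a subunit of the METTL3 complex, at -0.88 ± 0.19 (SE; adjusted p = 0.00238) were lower by edgeR with Benjamini-Hochberg adjustment. TRMT112 at 0.56 ± 0.15 (SE; adjusted p = 0.00824), AHCY at 0.40 ± 0.13 (SE; adjusted p = 0.0303) and PCIF1 at 0.41 ± 0.14 (SE; adjusted p = 0.034) were higher in the same edgeR test. The PCIF1 call was lost in 11 of 20 alternatives and the AHCY call in 9. Without TRIM28 knockdown replicate 1 PCIF1 had 0.31 and AHCY 0.34, without TRIM28 knockdown replicate 2 they had 0.45 and 0.42, without PARP1 knockdown replicate 2 they had 0.46 and 0.39, and without PARP1 knockdown replicate 3 they had 0.33 and 0.31, none past the threshold. TRMT112 lost its call in 4 of 20 alternatives, among them the fit without PARP1 knockdown replicate 3 (0.41). Over the 20 its difference between the knockdowns ranged from 0.25 to 0.72, and its length class had a median of 0.33.

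**Figure D4:**
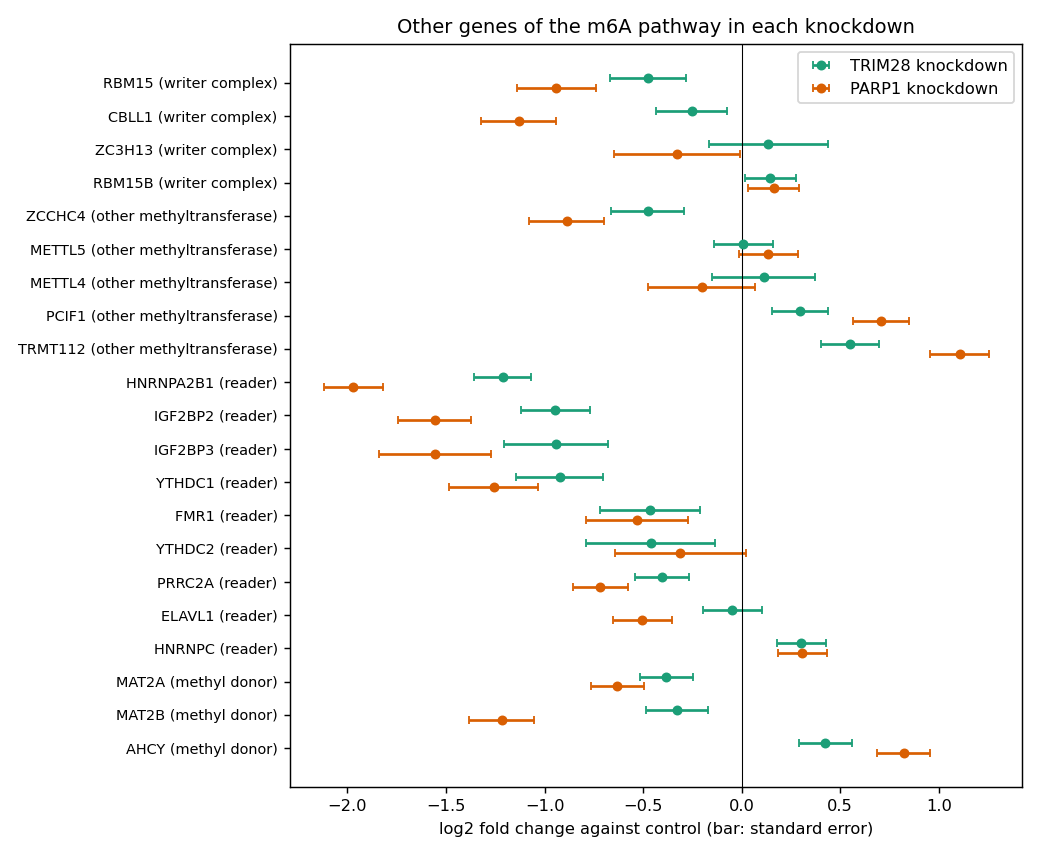
Log2 fold change against control of the 21 tested pathway genes outside the set, in TRIM28 knockdown and PARP1 knockdown (points; bars, SE), grouped by role. HNRNPA2B1 is lowest at -1.21 and -1.97, and TRMT112 is highest at 0.55 and 1.11.

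The genes whose pattern over the 9 libraries was most like that of METTL16 were sought among 8462 genes with a symbol and a mean FPKM of at least 1. Likeness was the root mean square difference of log2 CPM after centring each gene on its own mean. DIAPH1, a formin that nucleates actin, was nearest at 0.144, followed by COPB2, a subunit of the COPI vesicle coat, at 0.155 and HSP90AB1, a cytosolic chaperone, at 0.163. TRAM2, a translocon-associated protein, and ACSL1, an acyl-CoA ligase, had 0.186 each. HSP90AB1 had log2 fold changes of -1.07 in TRIM28 knockdown and -2.50 in PARP1 knockdown, and DIAPH1 had -1.54 and -2.56. Of the other m6A genes, YTHDF2 at 0.483 and FTO at 0.523 were the most like METTL16, at positions 617 and 862 among tested genes.

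**Figure D5:**
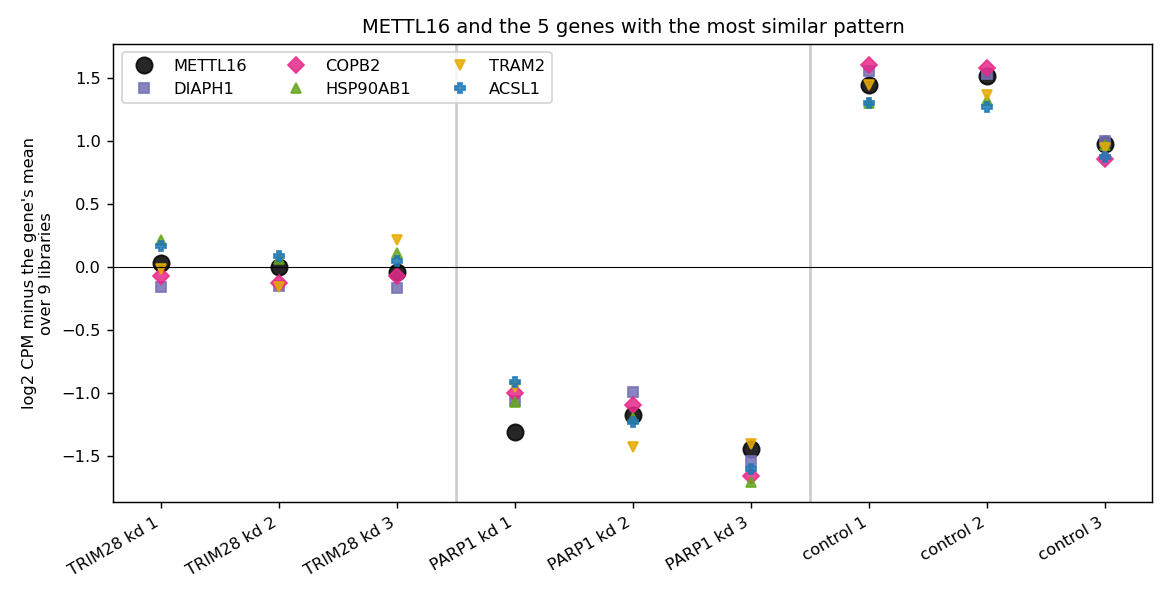
Log2 CPM of METTL16 and its 5 most similar genes in each library, minus each gene's mean over the 9 libraries. METTL16 lies near 0 in TRIM28 knockdown, between -1.44 and -1.17 in PARP1 knockdown and between 0.97 and 1.52 in control.

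The promoters of METTL16 and METTL3 are given because these methyltransferases had unlike values. The sequences are from RefSeq on GRCh38.p14, each 300 bases long around the annotated start on the minus strand, and 8 of the 10 genes had an entry. Capitals mark matches on either strand to ATGGCNG, a core of YY1 sites, and to CCGGAA, a core of ETS sites, which do not overlap here. METTL16 has 2 matches to ATGGCNG and 1 to CCGGAA, and METTL3 has 2 and 3. Of 35116 promoters of the same length, 16.4% hold ATGGCNG and 17.2% hold CCGGAA. A match is a description of the letters only.
METTL16, chr17:2511839-2512138: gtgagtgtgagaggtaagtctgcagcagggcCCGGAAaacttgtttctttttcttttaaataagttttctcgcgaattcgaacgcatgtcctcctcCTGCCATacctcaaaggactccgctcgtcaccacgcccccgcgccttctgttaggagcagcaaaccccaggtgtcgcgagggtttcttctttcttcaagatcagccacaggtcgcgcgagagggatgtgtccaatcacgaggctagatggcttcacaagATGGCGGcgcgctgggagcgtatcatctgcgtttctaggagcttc
METTL3, chr14:21511291-21511590: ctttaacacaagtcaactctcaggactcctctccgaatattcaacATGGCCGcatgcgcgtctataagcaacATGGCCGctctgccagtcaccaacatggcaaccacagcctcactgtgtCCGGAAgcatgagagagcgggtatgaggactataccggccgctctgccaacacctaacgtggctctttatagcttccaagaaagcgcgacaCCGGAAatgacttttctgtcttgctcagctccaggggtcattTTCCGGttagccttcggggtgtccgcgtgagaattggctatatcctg

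3 of the 10 genes overlap another tested gene on the opposite strand. WTAP overlaps SOD2, which had 150674 reads in all libraries together beside 6457 of WTAP, METTL3 overlaps TOX4, and FTO overlaps RPGRIP1L, which had 280 reads. The library kit keeps strand, but the sources used here do not state the strand setting of the counting. SOD2 had a log2 fold change of 0.03 ± 0.13 in TRIM28 knockdown, TOX4 of 0.01 ± 0.12 and RPGRIP1L of -0.05 ± 0.35 (SE).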

How the data were processed

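Per the labels' protocols, RNA was extracted with TRIzol, selected for poly(A), made into libraries with the NEBNext Ultra II Directional kit and sequenced on a NovaSeq instrument. The submitters' processing notes list STAR 2.7.9a for GRCh38 and featureCounts 2.0.1, after Trim Galore 0.6.6 and FastQC 0.11.9, and also R 4.0.3 with DESeq2 1.30.0. Neither annotation release nor strand setting is stated in the sources used here. Whole-number read counts were deposited for each gene, not normalized, and so were FPKM values per gene which equal the count over summed exon length and library total within rounding of 0.005.

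Tests used the quasi-likelihood method of edgeR 4.0.16, run in R 4.3.3 (TMM, the package's low-count filter), with all 9 libraries in 1 fit of 3 groups, 6 residual degrees of freedom and Benjamini-Hochberg adjustment over 13562 genes at 0.05. Tests were two-sided. The main design had named limma on FPKM for a table without counts. Replicates differed by more than sampling noise (chi-square per degree of freedom 5.00 to 48.4). The number of reads limits precision, most for METTL14, VIRMA and YTHDF3.

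Alternatives were DESeq2 1.42.0 and its size factors, library totals, no low-count filter, limma 3.58.1 on log2(FPKM + 1) or log2(FPKM + 0.1) with a mean FPKM of at least 0.5 or none, the compared groups only, a replicate block, lowess (span 0.3) fits that take out the trend of each library with length, or with length and GC, and leaving out each library. GC content covered 13390 tested genes, 98.7%. Fold changes from limma with a pseudocount of 1 understate those of low genes. Named were the 10 genes, in each comparison up to 3 other pathway genes per direction with the smallest adjusted p past 0.05, MAT2A, and the 5 genes most like METTL16. The members, gene lists and tests were chosen with earlier results of these data known. Sequences are from GENCODE v29 and RefSeq. Figures were drawn with matplotlib 3.10.9 in Python 3.11.15. A further sequence is not reported here.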

Additional observations from a re-analysis of the deposited data

How the results depend on the processing

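METTL16, FTO and YTHDF2 kept their calls in TRIM28 knockdown against control in all 20 alternatives. Counts of called genes moved more. Members called there (7, beside 3768 of 13562 genes over all) came to 3 with limma on log2(FPKM + 1) without a filter, beside 1069 of 26854. After removing the length trend 4 were called, all lower, beside 3237 of 13562. After removing the GC trend too 4 were called, 3 lower and METTL3 higher, beside 2887 of 13390. Leaving out each library gave 3 to 7 members, beside 1537 to 4935 genes over all. Other pathway genes called there (8) came to 2, 5 and 5 in those fits, and 3 to 11 leaving out each library. Between PARP1 and TRIM28 knockdown, members called (3, METTL16 included) came to 0 with unfiltered limma, beside 63 of 26854 genes over all. In that limma fit 4 members had an unadjusted p below 0.05, while DESeq2 called 3. Leaving out each library gave 2 to 5 members, beside 1654 to 4714 genes over all. Pathway genes (8) came to 0 with unfiltered limma, where 11 had an unadjusted p below 0.05 and DESeq2 called 8, to 5 with length and 4 with length and GC trends removed, and 4 to 11 leaving out each library. Direct calls over all genes numbered 3407 of 13562 in the main fit, 2944 of 13562 with length and 1994 of 13390 with length and GC trends removed. The METTL16 log2 value was -2.98 with library totals, -1.86 with limma at a pseudocount of 1 with or without a filter, -2.14 with length and -1.91 with length and GC trends removed in PARP1 knockdown against control (-2.65). Against TRIM28 knockdown (-1.31) it was -0.76 with limma at a pseudocount of 1 with or without a filter, -1.11 and -0.95.

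Some signs turned. With library totals, under which the median gene shifted by -0.16 in TRIM28 and -0.32 in PARP1 knockdown, METTL3 had -0.11, -0.20 and -0.090 in the comparisons of TRIM28 with control, PARP1 with control and PARP1 with TRIM28, and ALKBH5 had -0.035 and -0.0029 in the first 2. With limma METTL3 had -0.10, -0.18 to -0.20 and -0.086 to -0.093, and ALKBH5 -0.0365 to -0.0372 and -0.012 to -0.013. With length and GC trends removed ALKBH5 had -0.039 in TRIM28 knockdown and VIRMA 0.030 between the knockdowns, where its value was -0.34. The cause was not tested.

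Whether libraries with the same replicate number are paired was not settled by these values. Same-numbered libraries correlated at -0.08 to 0.14 in their deviations from group means, over 0.1 in 2 of 9 pairs. In the 3 comparisons 4, 4 and 0 of 6 libraries correlated best with their own number. With a replicate block the counts over all genes were 4085, 8071 and 3662 against 3768, 8042 and 3407, member counts were 7, 9 and 3, and METTL16 had log2 fold changes of -1.32, -2.65 and -1.33. Over all genes, TRIM28 knockdown calls numbered 1537 without control replicate 1, 1855 without control replicate 2, 2116 without TRIM28 knockdown replicate 2 and 1069 with unfiltered limma. Direct calls numbered 63 with unfiltered limma, 1994 with length and GC trends removed, and 1654, 2149 and 1712 without TRIM28 knockdown replicate 1, PARP1 knockdown replicate 2 and PARP1 knockdown replicate 3. With library totals 453 TRIM28 knockdown calls were higher and 2856 lower, against 1394 and 2374. METTL14 had no value in limma with the FPKM filter.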

Other observations

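Genes beside METTL16 on chromosome 17 were listed after its values were seen. Of 11 other tested genes within 500000 bases, 3 were lower and 1 higher in TRIM28 knockdown by edgeR with Benjamini-Hochberg adjustment, where 27.8% of all genes were called, with a median log2 fold change of -0.16. In PARP1 knockdown 4 were lower and 4 higher, where 59.3% of all genes were called, with a median of -0.21. TSR1, a ribosome assembly factor, had -0.89 in TRIM28 knockdown and -1.99 in PARP1 knockdown, and SMG6, the endonuclease of nonsense-mediated decay, had -0.61 and -1.38. DPH1, an enzyme of diphthamide synthesis, had 0.44 and 0.89.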
